A study of Homo sapiens with 6 samples.

Results

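The genes examined encode the enzymes and regulatory subunits that build and break down glycogen: PGM1, UGP2, GYG1, GYS1, GBE1, PPP1R3B and PPP1R3C on the synthesis side, and PYGL and PYGB on the breakdown side. They were taken from a fixed list of 9 symbols, which was chosen with earlier results of these data known. Every probe set annotated to one of these symbols alone was used, whatever its level. This gave 15 of the 54613 probe sets on the array and 9 of the 19775 genes named there, 5 of them read by more than 1 probe set. RNA came from MM1S, a long-established human line of multiple myeloma, the malignancy of plasma cells, and was measured on single-colour oligonucleotide arrays, 3 of cells in hypoxia and 3 of cells in normoxia. The labels give a hypoxic exposure of 24 h in a text that is identical on all 6 arrays, and the condition label alone set the groups. No genetic change or drug is named for either group, and the oxygen concentration, the passage and how the normoxic cells were handled are not given in the sources used here.

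Glycogen is a branched store of glucose. Glucose 6-phosphate is turned into glucose 1-phosphate by phosphoglucomutase (PGM1), activated to UDP-glucose by UGP2, attached to the self-glucosylating primer glycogenin (GYG1), extended by glycogen synthase (GYS1) and branched by GBE1. Glycogen phosphorylase (PYGL, the liver form, and PYGB, the brain form) releases glucose 1-phosphate again. Synthase is held in its active form, and phosphorylase in its less active form, by protein phosphatase 1, which targeting subunits such as PPP1R3B and PPP1R3C bring to the glycogen particle. Phosphoglucomutase works in both directions and is counted on the synthesis side here. In several cell types glycogen is known to build up at low oxygen, and GYS1, GBE1, PGM1 and PPP1R3C are known targets of the hypoxia-inducible factors, which bind DNA at a core of ACGTG or GCGTG.

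Promoter sequences are shown because several members moved together, and because members that did not pass the test can be set beside them. The RefSeq promoter table held a window for 8 of the 9 genes, with several windows for PGM1 and UGP2. The gene without a window was PPP1R3B, which rose. The 250 bases before the annotated start were searched on both strands for ACGTG and GCGTG. At least 1 match was found in 8 of the 11 windows, and for 7 of the 8 genes when a gene counts through any of its windows. PGM1, which rose, had 3 matches in its middle window (chr1:63593559-63593808, plus strand) and none in its other windows. That window begins after the end of the first one (chr1:63593161-63593410), so it lies downstream of the first annotated start. PGM1 is thus counted as matched through that window alone, while each UGP2 window held a match. The windows of these genes are not printed here. Of all 35116 windows of this length, 43.2% held at least 1 match, 18.5% an ACGTG and 32.2% a GCGTG. These shares are per window, and no share per gene was computed to set beside the 7 of 8 genes. The members' windows were rich in G and C (51.2% to 77.2%), and the share was not compared at like base composition. The windows of GYS1 and GBE1, which rose, of GYG1, which rose less, of PPP1R3C, which was dim in both conditions, and of PYGL and PYGB, which did not pass, are given 5′ to 3′ on the gene's strand in build GRCh38.p14, with the matches on either strand in capitals.
GYS1, chr19:48993310-48993559, minus strand: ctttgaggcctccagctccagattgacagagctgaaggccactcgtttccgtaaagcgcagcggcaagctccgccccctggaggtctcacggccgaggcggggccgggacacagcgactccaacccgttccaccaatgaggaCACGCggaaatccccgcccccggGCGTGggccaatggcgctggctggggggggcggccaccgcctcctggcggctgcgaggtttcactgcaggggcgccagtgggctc
GBE1, chr3:81761646-81761895, minus strand: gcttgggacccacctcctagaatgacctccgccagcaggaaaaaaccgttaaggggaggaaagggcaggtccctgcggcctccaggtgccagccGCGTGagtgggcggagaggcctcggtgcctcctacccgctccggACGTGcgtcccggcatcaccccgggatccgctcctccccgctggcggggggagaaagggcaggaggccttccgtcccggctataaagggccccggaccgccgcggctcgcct
GYG1, chr3:148991290-148991539, plus strand: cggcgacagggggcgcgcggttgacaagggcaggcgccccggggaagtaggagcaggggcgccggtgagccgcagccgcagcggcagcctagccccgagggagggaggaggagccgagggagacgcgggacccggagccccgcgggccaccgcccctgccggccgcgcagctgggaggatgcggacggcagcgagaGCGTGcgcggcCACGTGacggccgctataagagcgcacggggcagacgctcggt
PPP1R3C, chr10:91633072-91633321, minus strand: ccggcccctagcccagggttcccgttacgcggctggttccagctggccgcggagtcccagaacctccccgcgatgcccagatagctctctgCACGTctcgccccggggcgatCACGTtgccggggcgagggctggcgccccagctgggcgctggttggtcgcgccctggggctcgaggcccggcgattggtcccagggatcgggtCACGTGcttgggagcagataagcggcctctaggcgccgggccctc
PYGL, chr14:50944484-50944733, minus strand: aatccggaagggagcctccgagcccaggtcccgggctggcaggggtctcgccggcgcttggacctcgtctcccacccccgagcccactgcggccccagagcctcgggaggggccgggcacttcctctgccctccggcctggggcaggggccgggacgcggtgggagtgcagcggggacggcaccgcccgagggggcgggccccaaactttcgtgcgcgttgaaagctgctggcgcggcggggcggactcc
PYGB, chr20:25247835-25248084, plus strand: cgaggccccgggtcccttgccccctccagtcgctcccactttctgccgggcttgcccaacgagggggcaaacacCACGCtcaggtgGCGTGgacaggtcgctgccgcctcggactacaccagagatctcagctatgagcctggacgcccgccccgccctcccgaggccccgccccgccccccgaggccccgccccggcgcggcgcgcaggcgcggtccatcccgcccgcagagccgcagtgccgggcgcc
The GYS1 window held 2 GCGTG matches and no ACGTG, and that of GBE1 held 1 of each. The GYG1 and PPP1R3C windows each hold a CACGTG, which reads as ACGTG on both strands and so counts as 2 matches. With it, PPP1R3C had 4 ACGTG matches and GYG1 had 2, next to 1 GCGTG. The windows of the breakdown genes differed from each other. That of PYGB held 2 GCGTG matches and no ACGTG, the same counts as that of GYS1, which rose. That of PYGL held no match, which says only that these letters are not there. A match is a description of the sequence and not a binding site.

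Levels are intensities on a linear scale, in arbitrary units and in the order of replicates 0, 1 and 2 of each group. Changes are differences in log2(intensity + 16) between hypoxia and normoxia (positive where hypoxia was higher), with 95% confidence intervals; adding 16 makes the changes of dim probe sets look smaller than they are, and the p-values come from limma fitted to all 54613 probe sets with Benjamini-Hochberg adjustment. A probe set or gene that reached an adjusted p of 0.05 is said to have risen or fallen. The array medians were 54.95 to 60.13, and a level below them cannot be told from background here. In bulk RNA, a change in some of the cells and a smaller change in all of them cannot be told apart. The labels do not say that replicates came from separate cultures, so the p-values measure the spread between these arrays, which may be technical. Of 6 known hypoxia-responsive genes (PDK1, NDRG1, P4HA1, ADM, SLC2A1 and BNIP3L), 6 rose, against 15.6% of all genes, with a median change of 1.45. This list was chosen with earlier results of these data known, so it is not an independent check of the hypoxia label. All 8 plasma cell markers measured had mean levels from 198 to 11291, CD38 being the dimmest. Of them 4 fell, against 19.1% of all genes, and 0 rose, against 15.6%. The other 4 did not pass, with XBP1, PRDM1 and IRF4 at 0.22, 0.12 and 0.056 and TNFRSF17 at -0.15. Of 20 markers of other cell types, 19 had group means between 1.11 and 154.7 and 10 lay below the array median on every array. The other, the globin gene HBB, fell, at 1125 ± 27.7 in hypoxia and 1751 ± 128 in normoxia (SD, n = 3 each). Of the 19, the liver marker TTR rose (75.2 ± 9.65 in hypoxia and 48.8 ± 3.41 in normoxia, limma adjusted p = 0.0136), as did the T cell marker CD3D (131.6 ± 7.73 in hypoxia and 98.3 ± 14.9 in normoxia, limma adjusted p = 0.0485). Thus 2 of the 20 rose, against 15.6% of all genes, and 1 fell, against 19.1%. The other markers on the T cell and liver lists did not pass. CD3E, CD2 and APOA1 were at -0.16, -0.43 and -0.17, and CD8A and ALB at 0.072 and 0.15. Summed over each list, the hypoxia range against the normoxia range was 41274 to 43026 against 42834 to 44440 for plasma cells, 209.7 to 255.74 against 206.07 to 271.01 for T cells and 95.71 to 137.1 against 97.75 to 114.87 for monocytes and macrophages. It was 1139 to 1190.3 against 1717 to 1936 for erythroid cells, 230.2 to 368 against 283 to 320.1 for stroma, 124.56 to 132.82 against 99.08 to 107.11 for liver cells and 39.77 to 47.85 against 38.15 to 41.1 for muscle cells. The part of these shifts in the results below was not tested.

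Of the 7 glycogen synthesis genes 5 rose in hypoxia, and neither phosphorylase gene passed the test. Reading each gene by its brightest probe set, PGM1, GYG1, GYS1, GBE1 and PPP1R3B rose (5 of 9 members), against 15.6% of all genes. None of the 9 fell, against 19.1% of all genes, and at an unadjusted p of 0.05 in limma 1 was lower, PYGL. Over probe sets, 8 of 15 rose, against 15.5% of all probe sets, and 0 fell, against 15.2% of all probe sets, with 1 lower at an unadjusted p of 0.05. Hypoxia and normoxia did not overlap in 11 of the 15 probe sets, against 42.5% of all probe sets. The median change of the 9 genes was 0.35, beside -0.00016 over all genes.

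**Figure D1:**
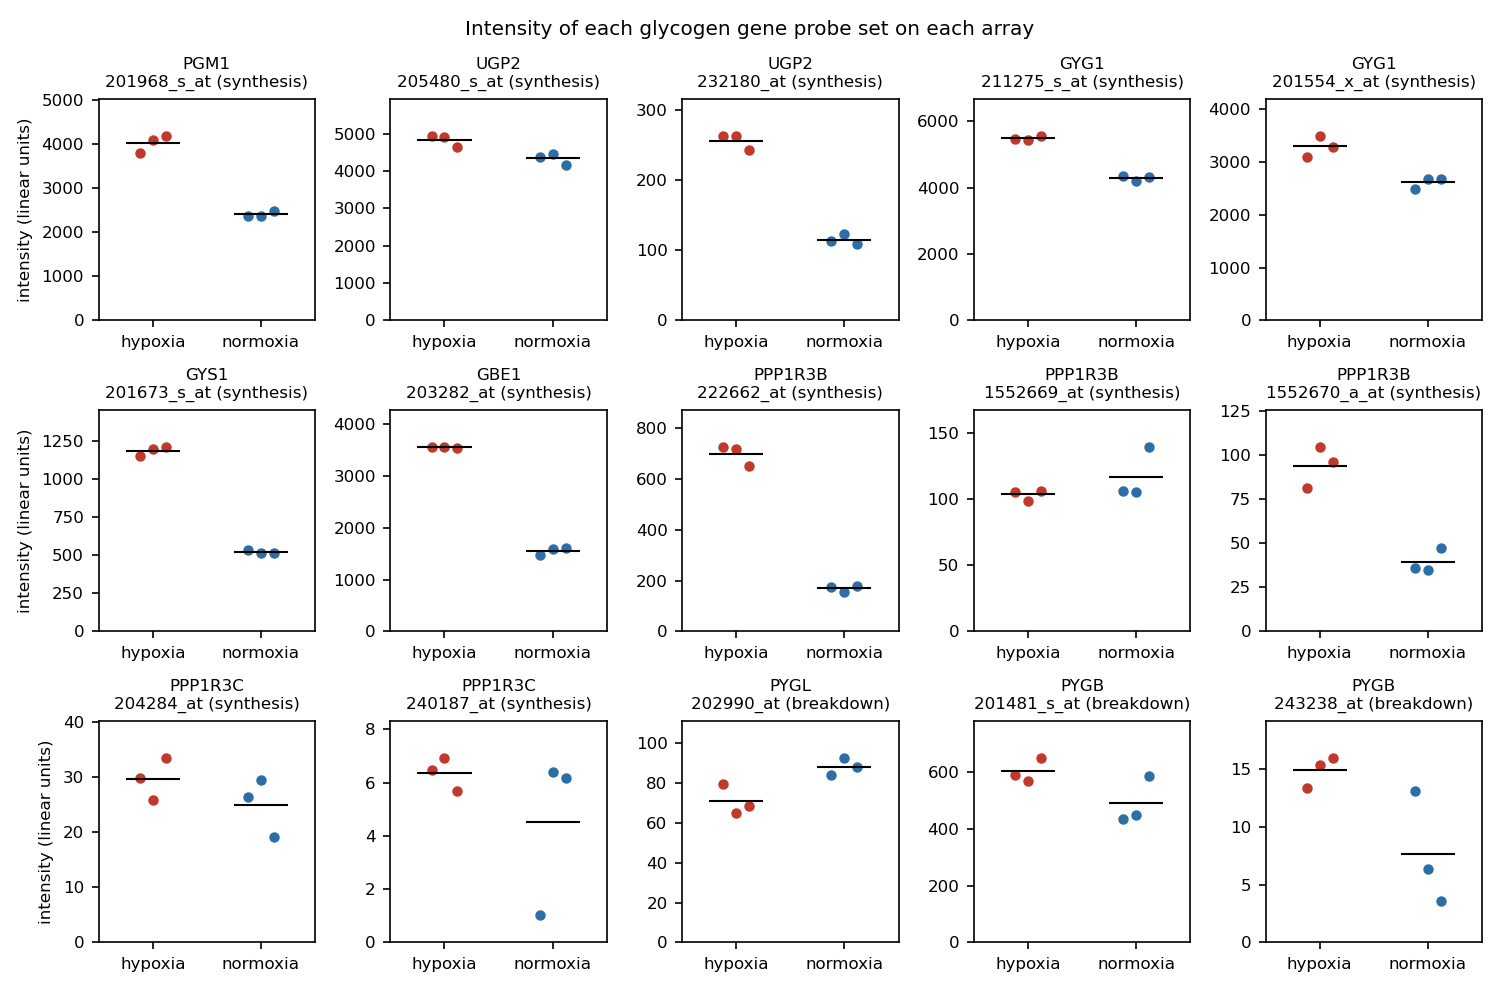
Intensity in linear units (vertical axes from 0, a scale for each panel) of the 15 probe sets on the 3 hypoxia arrays (red, left) and the 3 normoxia arrays (blue, right), with the group mean as a bar. The groups are far apart for PGM1, GYS1, GBE1 and PPP1R3B 222662_at, and overlap for both PPP1R3C probe sets, for PPP1R3B 1552669_at and for PYGB 201481_s_at.

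PGM1, which interconverts glucose 6-phosphate and glucose 1-phosphate, was read by probe set 201968_s_at at 3791.68, 4095.29 and 4189.03 in hypoxia, against 2369.74, 2378.75 and 2491.05 in normoxia. Each hypoxia array lay above each normoxia array. The mean ratio was 1.67-fold and the log2 change 0.73 (95% interval 0.55 to 0.91, limma adjusted p = 0.000692).

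UGP2, the enzyme that makes UDP-glucose, gave different answers from its 2 probe sets. The bright one, 205480_s_at, was at 4946.34, 4926.75 and 4641.34 in hypoxia, against 4373.29, 4466.93 and 4176.32 in normoxia. Its groups did not overlap, but the change of 0.16 (95% interval -0.015 to 0.33) did not pass (limma adjusted p = 0.161), and it passed in limma with an intensity trend (adjusted p = 0.0184). The dimmer one, 232180_at, rose 2.23-fold, with 262.74, 261.9 and 243.05 in hypoxia, against 112.7, 122.34 and 108.55 in normoxia (log2 change 1.06, 95% interval 0.87 to 1.25, limma adjusted p = 0.000223). All 3 hypoxia arrays were at about the same multiple of the normoxia level. The 2 changes differed by 0.90, and the difference between the probe sets, taken relative to its normoxia mean, was 0.89 to 0.91 on the hypoxia arrays, against -0.031 to 0.043 on the normoxia arrays (exact two-sided permutation test, p = 0.1, the smallest that 3 against 3 arrays allow). Which transcripts each probe set reads was not analysed here, and with the mean of both, UGP2 passed at 0.61 (limma adjusted p = 0.000687).

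GYG1, the glycogenin on which a new chain is started, rose by a small amount that both of its probe sets shared. The brighter, 211275_s_at, was at 5472.91, 5453.81 and 5565.71 in hypoxia, against 4340.17, 4216.39 and 4330.92 in normoxia. The arrays within each condition lay close together and the conditions did not overlap. This was a 1.28-fold ratio and a log2 change of 0.35 (95% interval 0.20 to 0.51, limma adjusted p = 0.00705). The other, 201554_x_at, whose suffix marks a probe set that may also match other sequences, averaged 3299 ± 201 in hypoxia and 2618 ± 112 in normoxia (SD, n = 3 each; log2 change 0.33, limma adjusted p = 0.0230). The changes of the 2 probe sets differed by 0.024 (exact two-sided permutation test, p = 0.8). The call of 201554_x_at was lost at adjusted p = 0.0572 to 0.0726 when any array other than hypoxia replicate 0 was left out.

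GYS1, the glycogen synthase of muscle and most other tissues, rose 2.27-fold. Probe set 201673_s_at was at 1150.16, 1194.66 and 1211.38 in hypoxia, against 534.1, 517.58 and 513.97 in normoxia. The lowest hypoxia array was thus above the highest normoxia array by a wide margin compared with the spread in either group. The log2 change was 1.16 (95% interval 0.998 to 1.32, limma adjusted p = 0.000109), and 1.9% of all genes had a larger rise.

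GBE1, which adds the branches, rose by nearly the same factor, 2.28-fold. Its probe set 203282_at was at 3565.27, 3560.42 and 3533.6 in hypoxia, against 1485.49, 1591.12 and 1603.33 in normoxia. The hypoxia arrays were the tighter group, with an SD of 17.1, against 64.8 in normoxia. The log2 change was 1.18 (95% interval 1.01 to 1.35, limma adjusted p = 0.000113), and 1.81% of all genes had a larger rise.

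PPP1R3B, a targeting subunit best known from liver that brings protein phosphatase 1 to glycogen, had the largest change among the 9 genes by its brightest probe set, although its 3 probe sets did not behave alike. The brightest, 222662_at, was at 727.31, 720.64 and 649.93 in hypoxia, against 174.73, 155.24 and 178.32 in normoxia. The groups lay far apart, with a ratio of 4.13-fold and a log2 change of 1.95 (95% interval 1.73 to 2.16, limma adjusted p = 6.74e-05), and 0.349% of all genes had a larger rise. Another, 1552670_a_at, also rose, was under the array median in normoxia, and lay at 81.21, 104.78 and 96.19 in hypoxia, against 35.74, 34.72 and 47.2 in normoxia (log2 change 0.997, limma adjusted p = 0.00178). The remaining one, 1552669_at, was at 105.75, 99.01 and 106.51 in hypoxia, against 106.01, 105.63 and 139.62 in normoxia. These overlapped, and the change of -0.14 (95% interval -0.43 to 0.14) did not pass (limma adjusted p = 0.443). The change of the brightest exceeded that of 1552669_at by 2.09 and that of 1552670_a_at by 0.95 (exact two-sided permutation tests, each p = 0.1, the smallest possible). Averaged over the 3 probe sets the gene still rose, by 0.93 (limma adjusted p = 0.000417), less than GYS1 and GBE1.

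PPP1R3C, another targeting subunit, was dim in both conditions. Probe set 204284_at was at 29.85, 25.83 and 33.56 in hypoxia, against 26.45, 29.51 and 19.19 in normoxia, and 240187_at ranged from 5.68 to 6.93 in hypoxia and from 1.04 to 6.40 in normoxia. All of these values were below the array medians and the groups overlapped, so no level above background was established and no change was detectable (log2 changes 0.16 and 0.13, limma adjusted p = 0.413 and 0.503).

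**Figure D2:**
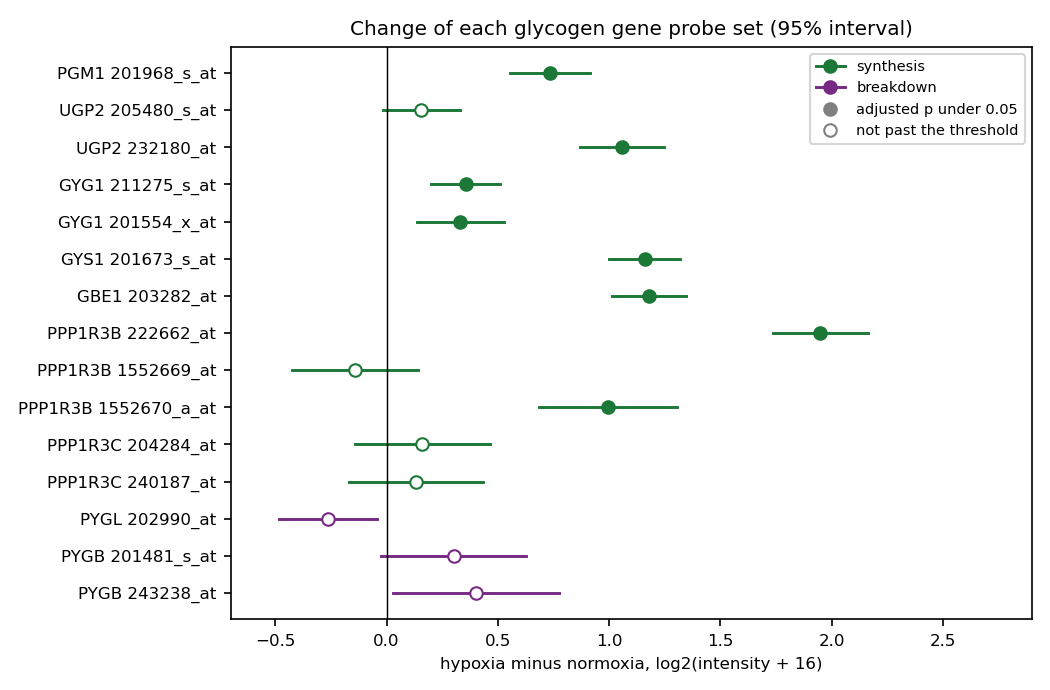
Difference in log2(intensity + 16), hypoxia minus normoxia (horizontal axis), for the 15 probe sets, with 95% confidence intervals from limma. Filled points passed an adjusted p of 0.05 and open points did not; green is the synthesis side and purple the breakdown side. All 8 filled points are to the right of 0 and on the synthesis side.

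PYGL, the liver form of glycogen phosphorylase, had intensities not far above the array medians (54.95 to 60.13) and did not pass the test. Probe set 202990_at was at 79.37, 64.72 and 68.64 in hypoxia, against 83.77, 92.61 and 88.02 in normoxia. All hypoxia arrays were below all normoxia arrays, with hypoxia replicate 0 close to the normoxia range. The log2 change of -0.26 (95% interval -0.48 to -0.045) did not pass over all probe sets (limma adjusted p = 0.0755; unadjusted p = 0.0257). It passed in 3 of 17 alternatives. These were without hypoxia replicate 0 at -0.33 (limma adjusted p = 0.0311), without both arrays numbered 0 at -0.36 (limma adjusted p = 0.0396), and without the dimmer probe sets (limma adjusted p = 0.0252). In the other 14 it did not pass, for example with an intensity trend (limma adjusted p = 0.163) or the replicate number as a block (limma adjusted p = 0.137).

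PYGB, the brain form, did not pass either. Probe set 201481_s_at was at 590.91, 569.55 and 650.15 in hypoxia, against 434.6, 448.79 and 587.69 in normoxia. The groups overlapped through normoxia replicate 2, which lay among the hypoxia arrays. The log2 change was 0.30 (95% interval -0.023 to 0.63, limma adjusted p = 0.154), and without normoxia replicate 2 it was 0.43 and passed (limma adjusted p = 0.0295). Its other probe set, 243238_at, was at 13.38, 15.35 and 16 in hypoxia, against 13.16, 6.34 and 3.6 in normoxia, below the array median throughout, and did not pass (log2 change 0.40, limma adjusted p = 0.105), but passed without normoxia replicate 0 (0.56, limma adjusted p = 0.0133). With the mean of both probe sets PYGB passed at 0.35 (limma adjusted p = 0.0110).

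Set side by side, the calls in the fit over all probe sets were all on the synthesis side, which held 7 genes against 2. Under some alternatives a breakdown gene passed too. With the mean of each gene's probe sets PYGB passed at 0.35 (limma adjusted p = 0.0110), beside 0.34 for GYG1. Without dim probe sets PYGL passed at -0.26 (limma adjusted p = 0.0252). Of the 7 synthesis genes, 5 rose and 2 did not pass (UGP2 and PPP1R3C), with changes of 0.16 to 1.95 and a median of 0.73. The 2 breakdown genes had changes of -0.26 and 0.30 and neither passed in limma, while at an unadjusted p of 0.05 PYGL was lower. The median of these 2, 0.019, changed sign under several settings and is no more than the midpoint of changes in opposite directions. For each array, the mean log2 value of the synthesis genes minus that of the breakdown genes was taken relative to normoxia. It was 0.73, 0.88 and 0.77 on the hypoxia arrays, against 0.12, 0.033 and -0.15 on the normoxia arrays (mean 0.79 ± 0.077 in hypoxia, SD of 0.14 around 0 in normoxia, n = 3 each). The values of the conditions did not overlap, and no test was made of this score, since its members were chosen.

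Single pairs did not all give this order, since UGP2 at 0.16 and PPP1R3C at 0.16 were below PYGB at 0.30, and GYG1 was at 0.35. Differences were computed for GYS1 and GBE1, which had the largest rises among the synthesis enzymes by brightest probe set. Because these genes stand out by their rises in these same data, the separation and p-values below are descriptions only. The pairs cannot decide whether synthesis genes rose more than breakdown genes. The change of GYS1 exceeded that of PYGL by 1.42 and that of PYGB by 0.86. For GBE1 the excess was 1.44 over PYGL and 0.88 over PYGB. In all 4 pairs the hypoxia arrays lay above the normoxia arrays, and each had p = 0.1 in an exact two-sided permutation test, the smallest that 3 against 3 arrays allow. Over the 8 differences of this kind that were computed, those between probe sets of a gene included, the Benjamini-Hochberg adjusted p of these was 0.114, so the design cannot place them past 0.05.

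**Figure D3:**
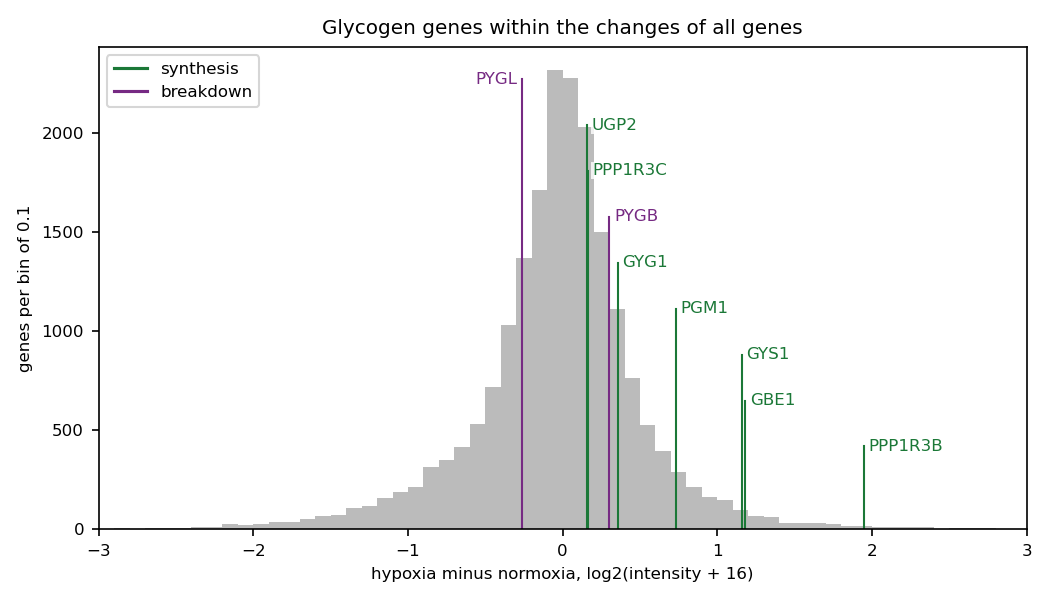
Distribution of the difference in log2(intensity + 16), hypoxia minus normoxia, over all 19775 genes (grey bars, genes per bin of 0.1), with each glycogen gene's brightest probe set as a line (green synthesis, purple breakdown; line heights only separate the names). PPP1R3B, GBE1 and GYS1 lie in the right tail, and PYGL, UGP2, PPP1R3C and PYGB within the bulk. PGM1 and GYG1 lie between these: 5.67% and 17% of all genes had a larger rise, against 20.3% for PYGB.

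Other genes of glycogen metabolism, from a list arranged by role, moved in both directions. Of 28 listed, 25 were measured. By brightest probe set 7 rose, against 15.6% of all genes, 4 fell, against 19.1% of all genes, and 14 did not pass, with a median change of 0.016. The split turned to 5 higher and 6 lower with median centring, with the mean of each gene's probe sets and, over 18 genes, without dim probe sets. When 1 array was left out the count past the threshold was 6 to 11, with 7 without hypoxia replicate 1, 6 without hypoxia replicate 2 and 6 without normoxia replicate 0.

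Among subunits of protein phosphatase 1, read by brightest probe set, 2 of 7 rose, against 15.6% of all genes, and 0 fell, against 19.1% of all genes. With 7 genes these counts are close to the background, and the same 2 were the only genes of this role under an unadjusted p of 0.05 in limma. PPP1R3E, a further glycogen-targeting subunit, was at 538.5, 544.02 and 522.85 in hypoxia, against 174.48, 202.75 and 194.3 in normoxia. Its groups were far apart (2.81-fold, log2 change 1.42, 95% interval 1.22 to 1.61, limma adjusted p = 0.000107), and its other probe sets, 227412_at and 227409_at, rose 3.31-fold and 3.13-fold. The catalytic subunit gene PPP1CC rose by 0.26 (7390 ± 219 in hypoxia and 6159 ± 151 in normoxia, SD, n = 3 each, limma adjusted p = 0.0290). That call was lost when any 1 array other than hypoxia replicate 0 was left out, at adjusted p = 0.0628 to 0.0916, and with median centring (0.20, adjusted p = 0.0864). The other catalytic subunit genes, PPP1CA and PPP1CB, were at -0.12 and -0.034 by their brightest probe sets and did not pass, although 1 of the 4 probe sets of PPP1CB, 201408_at, fell by 0.56 (limma adjusted p = 0.00300).

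Phosphorylase kinase, which switches phosphorylase on, had lower signal for its beta subunit gene in hypoxia. By brightest probe set 1 of its 5 genes rose, against 15.6% of all genes, and 2 fell, against 19.1% of all genes. PHKB was at 684.93, 608.13 and 602.69 in hypoxia, against 1248.46, 1164.9 and 1193.35 in normoxia. Hypoxia was thus at 0.526 of the normoxia mean (log2 change -0.91, 95% interval -1.11 to -0.71, limma adjusted p = 0.000451), and 2 further probe sets fell to 0.519 and 0.554 of it, while the fourth, which was dim, did not pass. The catalytic subunit gene PHKG2 fell, with 253 ± 22.0 in hypoxia and 356 ± 22.4 in normoxia (SD, n = 3 each; log2 change -0.47, limma adjusted p = 0.0110), a call lost without both arrays numbered 0 (adjusted p = 0.0506). PHKG1, the muscle catalytic subunit gene, rose by 0.62 but was under the array median in normoxia (65.3 ± 9.61 in hypoxia and 37.2 ± 9.38 in normoxia; limma adjusted p = 0.0316). The call of PHKG1 was lost without hypoxia replicate 1 or 2 or normoxia replicate 0 or 1 (adjusted p = 0.0534 to 0.101), and with a pseudocount of 1 (adjusted p = 0.0533). The alpha subunit genes PHKA1 and PHKA2 were at 0.15 and 0.16 and did not pass, although a dimmer probe set of PHKA1 fell to levels near the array median in hypoxia.

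**Figure D4:**
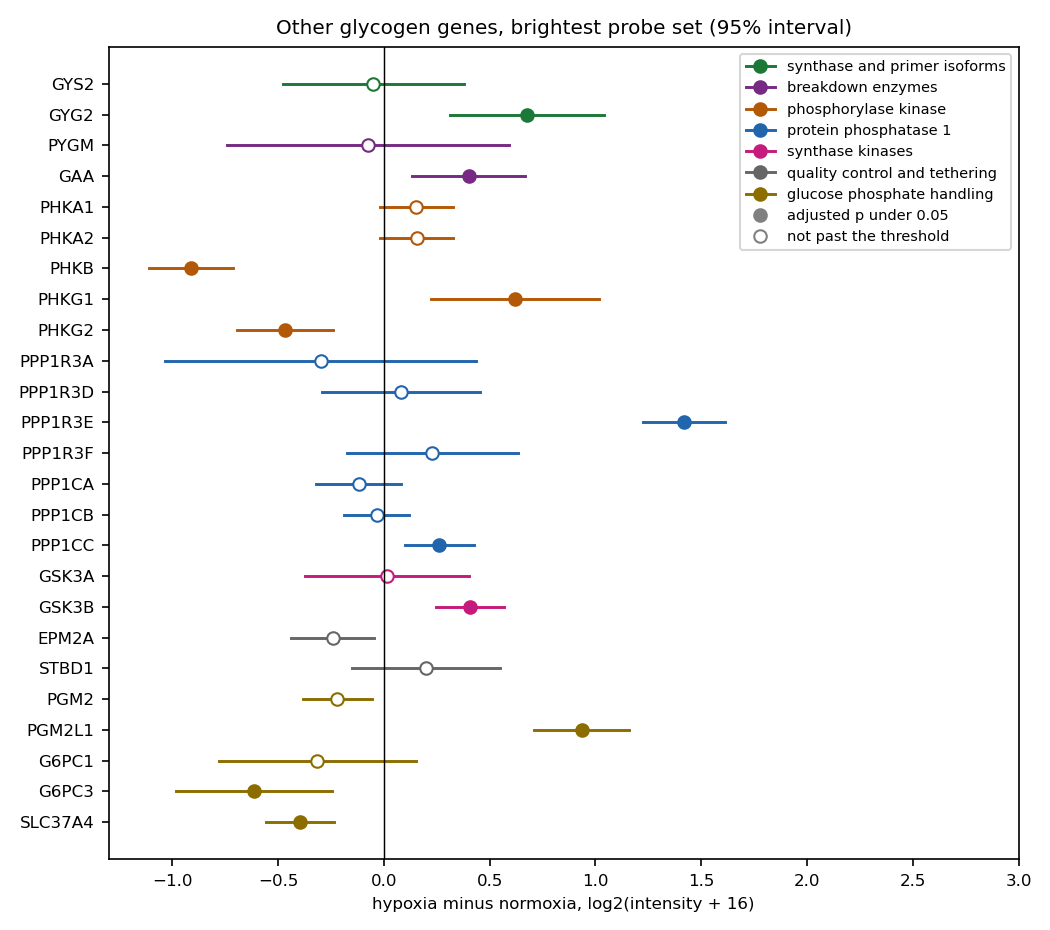
Difference in log2(intensity + 16), hypoxia minus normoxia (horizontal axis), for 25 other glycogen genes by their brightest probe set, coloured by role, with 95% confidence intervals from limma. Filled points passed an adjusted p of 0.05; PPP1R3E is farthest to the right at 1.42 and PHKB farthest to the left at -0.91.

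Genes that handle glucose phosphates split: by brightest probe set 1 of 5 rose, against 15.6% of all genes, and 2 fell, against 19.1% of all genes. PGM2L1, which makes glucose 1,6-bisphosphate, an activator of phosphoglucomutase, was at 180.69, 204.24 and 195.22 in hypoxia, against 100.51, 96.89 and 83.6 in normoxia. The groups did not overlap (2.06-fold, log2 change 0.93, limma adjusted p = 0.000643). SLC37A4, the glucose 6-phosphate transporter gene of the step that frees glucose, fell and was at 1133 ± 34.1 in hypoxia and 1495 ± 24.7 in normoxia (log2 change -0.39, limma adjusted p = 0.00542). The ubiquitous glucose 6-phosphatase gene G6PC3 averaged 947 ± 155 in hypoxia and 1453 ± 199 in normoxia (SD, n = 3 each; log2 change -0.61, limma adjusted p = 0.0252). Leaving out any array other than hypoxia replicate 0 or normoxia replicate 1 ended the G6PC3 call (adjusted p = 0.0630 to 0.0832), and the dimmer probe sets of both genes did not pass. The liver glucose 6-phosphatase gene G6PC1 was below the array median throughout and did not pass.

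The remaining roles, of 2 genes each, gave 3 calls by brightest probe set, each of which was lost or changed sign under some setting. All 3 were higher, against 15.6% of all genes, and 0 fell, against 19.1% of all genes. GSK3B, a kinase that inactivates glycogen synthase, rose by 0.41 at its brightest probe set (1336 ± 46.3 in hypoxia and 1002 ± 10.4 in normoxia, limma adjusted p = 0.00484), but of its 5 probe sets 2 rose and 2 fell, and their mean was at -0.049 (limma adjusted p = 0.624). It was the only one of the 19 listed genes with several probe sets in which both directions passed. GAA, the lysosomal enzyme that digests glycogen, rose by 0.40 (120.2 ± 12.8 in hypoxia and 87.1 ± 9.46 in normoxia, limma adjusted p = 0.0364). The GAA call was lost without hypoxia replicate 1 or 2 or normoxia replicate 0 or 1, at adjusted p = 0.0950 to 0.112, and with a pseudocount of 1 or median centring. GYG2, the liver glycogenin, rose by 0.68 at levels below the array median (44.5 ± 10.8 in hypoxia and 21.6 ± 3.37 in normoxia, limma adjusted p = 0.0162), and the mean of its 3 probe sets was at -0.013. Its call was lost without hypoxia replicate 2 or normoxia replicate 0 or 2 (adjusted p = 0.0511 to 0.0559), without both arrays numbered 0 (adjusted p = 0.0604) and with the replicate number as a block (adjusted p = 0.0618). Synthase and phosphorylase forms of liver and muscle, GYS2 and PYGM, stayed below the array median on every array. Of the quality control and tethering genes, EPM2A (laforin, a glycogen phosphatase) and STBD1, 0 of 2 passed in limma, 1 was under an unadjusted p of 0.05 (EPM2A, at -0.24), and the glycogen-binding protein gene STBD1 was at 0.20.

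As a description of like patterns, the genes closest to GYS1 and PYGL were those with the smallest root mean square difference over the 6 arrays in log2 value relative to the normoxia mean. For GYS1 they were USP3, LOC728392 and ATXN1, at root mean square differences of 0.023, 0.024 and 0.030 and changes of 1.13 to 1.16. For PYGL they were IFNA10, ACSS3 and B3GALT6, at 0.034, 0.045 and 0.047. Of these 3, B3GALT6 alone was well above the array medians, at 1089 in hypoxia and 1274 in normoxia, while IFNA10 averaged 1.97 in hypoxia and 5.57 in normoxia and ACSS3 33.7 in hypoxia and 42.8 in normoxia.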

How the data were processed

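RNA was extracted with an RNeasy kit and copied into biotinylated cRNA, per the labels' protocols. The values are linear intensities of probe sets as deposited by the authors; their background correction, probe summary and scaling are not given in the sources used here. In each array 2.44% to 2.58% of values were exactly 1. The number of arrays (3 per group) limits the precision. The 15 pairs of arrays shared 1.07% to 1.23% of values, so each array was counted as 1 sample. Log2 values correlated across probe sets at 0.988 to 0.993 within groups and 0.962 to 0.968 between them.

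Names came from the platform annotation: 41091 had 1 symbol, 1801 several and 11721 none here, and 41037 of the first were matched to RefSeq by Entrez identifier to update symbols. No row named a member together with another gene. Intensities were turned into log2(intensity + 16), and the 2 conditions were compared in limma 3.58.1 (lmFit, eBayes; R 4.3.3) by a two-sided test without covariates over all 54613 probe sets. A gene was read by the single-symbol probe set that was brightest on average over the 6 arrays. The procedure was tested on simulated data. The members and lists were chosen with earlier results of these data known. Named were all 9 members with every probe set, up to 12 other glycogen genes past the threshold by adjusted p (11 passed) and 3 genes each like GYS1 and PYGL in pattern; others were named after their values were seen. Alternatives were other pseudocounts, scalings, filters, probe set rules, an intensity trend, the replicate number as a block and fewer arrays.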

Additional observations from a re-analysis of the deposited data

How the results depend on the processing

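The members that rose kept their direction and their call under every alternative tried: GYS1 at 1.09 to 1.24, GBE1 at 1.11 to 1.23, PGM1 at 0.67 to 0.78, GYG1 at 0.29 to 0.38 and PPP1R3B at 0.93 to 2.04. The count of members past the threshold was 5 to 7 genes and 7 to 10 probe sets over all alternatives, and 5 to 6 genes and 7 to 9 probe sets when 1 array was left out. The added gene calls were UGP2 and the breakdown genes PYGB (higher) and PYGL (lower), each under some of the alternatives. The median change of the synthesis genes was 0.73, with 0.70 to 0.78 when 1 array was left out, and 0.95 without dim probe sets, which leaves out PPP1R3C. That of the breakdown genes was 0.019, from -0.035 to 0.085 when 1 array was left out (-0.0085 without hypoxia replicate 0 and -0.035 without normoxia replicate 0), -0.0017 with a pseudocount of 1, -0.046 with median centring and -0.063 without both arrays numbered 0. Synthesis minus breakdown was 0.79, from 0.72 to 0.85 when 1 array was left out, 0.70 with a pseudocount of 64, 0.88 without both arrays numbered 0 and 0.69 when each gene's probe sets were averaged; the cause was not tested. The count of other glycogen genes past the threshold, 11, was 6 to 11 when 1 array was left out and up to 13 elsewhere. GSK3B and GYG2 reversed with the mean of their probe sets, at -0.049 and -0.013. The titles give both groups the numbers 0, 1 and 2. Deviations from the group means correlated at 0.21, 0.0082 and 0.19 between same-numbered arrays, and 5 of 6 arrays correlated best with their own number, a hint from the data only, so the numbers were not taken as pairs. With the replicate block 8 member probe sets, 5 member genes and 10 other genes passed, GYG2 being lost. Without detection calls, dim probe sets cannot be told from background.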

Other observations

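Of the 19 other glycogen genes with several probe sets, 3 had a dimmer probe set that fell where the brightest one did not pass. Over all probe sets 15.2% fell, and no like share was computed per gene, so this count is not a result about these genes. The 3 are named after their values were seen. For PHKA1, the muscle alpha subunit gene of phosphorylase kinase, probe set 229876_at was at 40.79, 68.87 and 48.08 in hypoxia, against 239.78, 219.59 and 230.4 in normoxia (log2 change -1.86, limma adjusted p = 0.000353). On 2 of the 3 hypoxia arrays it was below the array median, where a level cannot be told from background, so the size of this change is uncertain, while its brightest, 205450_at, was at 953 ± 41.4 in hypoxia and 855 ± 22.2 in normoxia. For PGM2, a phosphopentomutase related to PGM1, 225366_at was at 515.85, 523.06 and 506.36 in hypoxia, against 841.08, 970.07 and 890.98 in normoxia (log2 change -0.79, limma adjusted p = 0.000694), while the brightest, 225367_at, was at -0.22 (limma adjusted p = 0.0537). For PPP1CB, a catalytic subunit gene of protein phosphatase 1, 201408_at was at 1695.02, 1937.8 and 1691 in hypoxia, against 2593.01, 2615.16 and 2663.59 in normoxia (log2 change -0.56, limma adjusted p = 0.00300), while its other 3 probe sets were at -0.034, -0.073 and -0.013 and did not pass. Which transcripts or parts of a transcript these probe sets read was not analysed here.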
